A study of Mus musculus with 4 samples.

Results

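Calmodulin, the CaM kinases and calcineurin were followed in area CA1 of the hippocampus by taking every probe set whose annotation gave exactly 1 symbol and that symbol was Calm2, Calm3, Camk2a, Camk2b, Camk2g, Camk4, Nrgn or Ppp3ca. This rule, which uses no measured value, found 7 of the 12422 probe sets of the array. They stand for 6 of the 8 genes: Camk2a has 2 probe sets, Calm2, Camk2b, Camk4, Nrgn and Ppp3ca have 1 each, and Calm3 and Camk2g had none among the symbols of the platform table used here. The RNA came from young male C57BL/6J mice, an inbred strain, that were handled and had no other treatment. All 4 samples belong to this 1 group, 1 each from 1, 2, 4 and 6 hours after other mice of the experiment had had their last shock; samples of shocked mice were not analysed here. Whether each RNA came from 1 animal or from pooled animals is not labelled, so a difference between samples mixes hour, animal, dissection and array.

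Calmodulin is the small calcium sensor of the cell. When synaptic activity lets calcium into a pyramidal neuron, calcium-loaded calmodulin switches on both the CaM kinases, which add phosphate to synaptic and nuclear proteins, and calcineurin, the phosphatase that takes phosphate away. Neurogranin holds calmodulin in its calcium-free state in dendrites, and the balance of kinase and phosphatase is known for its part in long-term potentiation and depression at CA1 synapses.

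Each array had been scaled by the submitters to a common level, and a value below is the deposited linear signal of a probe set unless it is called a log2 value. Log2 values and fits are on quantile-normalized signals, with a floor of 35.1 (the 20th percentile). Probe sets bind their targets unequally, so levels of different genes are not ordered. In the 1-hour sample the Gapdh control had a 3' signal 4.52 times its 5' signal, while this ratio was 1.18 at 2 hours, 1.37 at 4 hours and 1.20 at 6 hours. For the beta-actin control the ratio was 2.34 at 1 hour and 2.00, 1.80 and 1.76 in the others. The choroid plexus marker transthyretin (Ttr) had 2246 there against 143 to 353, and 3 of 3 tested choroid plexus markers were higher there. The 4 choroid plexus markers on the array had a summed level of 4519 there, against 1638 to 2332. Of 9 tested markers of neurons in general 6 were lower at 1 hour, with a median log2 difference of -0.58. Their summed level was 46097 there and 42840 to 47794 in the others. The part of RNA state or of dissection in the 1-hour values given below was not tested. In tissue RNA, fewer cells of a type and less RNA per cell cannot be told apart.

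The tissue label was set against 8 markers of CA1 and pyramidal neurons, of which 5 are on the array. Wfs1, which marks CA1 pyramidal neurons, had 2292, 2274, 2797 and 1964 from 1 to 6 hours, and Neurod6, a transcription factor of forebrain pyramidal neurons, had 1078, 1279, 811 and 1078. Pou3f1 had 489, 588, 726 and 654. These 3 markers had a summed level of 3860, 4140, 4334 and 3697. The other 2 are members: Nrgn, which was bright, and Camk2a, which was dim in all 4 samples. All 5 together had 8381, 7653, 9551 and 6972. Of the 4 tested markers 2 were higher at 1 hour, Nrgn and Neurod6. Markers of neighbouring regions gave signal too. Their summed levels from 1 to 6 hours were 6665, 5862, 6105 and 5929 for CA3 and CA2. They were 2015, 2039, 1976 and 2093 for dentate gyrus, and 1408, 1207, 1712 and 1685 for thalamus. Levels of different genes are not ordered, so these sums do not say how clean the dissection was.

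Of the calmodulin genes, which in mammals each encode the same protein, Calm2 was measured. It had 464 in the 1-hour sample, 336 at 2 hours, 378 at 4 hours and 371 at 6 hours, a mean of 387 ± 54 (SD, n = 4). The 1-hour sample was the highest and the other 3 lay close together. On the log2 scale the 1-hour value stood 0.42 above the mean of the other 3, whose SD was 0.11. The adjusted p of that difference was 0.437 (limma, each sample against the other 3), and its 95% interval ran from -0.13 to 0.97.

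Nrgn, which encodes neurogranin, varied most of the 4 tested probe sets. It had 4491, 3418, 5162 and 3240 at 1, 2, 4 and 6 hours, a mean of 4078 ± 910 (SD, n = 4). The 1- and 4-hour samples were high and the 2- and 6-hour samples low, with a 1.58-fold step from lowest to highest (0.66 on the log2 scale). The 1-hour sample lay inside the range of the others, so the spread of Nrgn was 0.31 (SD of log2 values) with that sample and 0.36 without it. The 4-hour value stood 0.49 above the other 3 (95% interval -0.03 to 1.02), with an unadjusted p of 0.0605 and an adjusted p of 1 by limma. Among all tested probe sets 62.2% had a smaller SD than Nrgn.

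Camk2b encodes the beta subunit of CaM kinase II, which ties the holoenzyme to actin filaments in spines. It had 7091 at 1 hour, 8018 at 2 hours, 8320 at 4 hours and 8773 at 6 hours, a mean of 8051 ± 711 (SD, n = 4). The 1-hour sample was the lowest, and the other 3 had an SD of 0.07 on the log2 scale. The 1-hour difference of -0.33 had a 95% interval from -0.58 to -0.07, with an unadjusted p of 0.0192 and an adjusted p of 0.206 by limma over all tested probe sets. It was thus larger than the spread of the other 3 samples but did not pass the adjusted threshold of 0.05. The value comes from the sample with the Gapdh ratio of 4.52 and the beta-actin ratio of 2.34. In that sample Calm2, Nrgn and Ppp3ca were higher than the mean of the other 3. The part of RNA state in these values was not tested.

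Camk2a encodes the alpha subunit, the major CaM kinase II subunit of forebrain excitatory neurons, and its 2 probe sets were dim. The first had 17.6, 15.2, 64.5 and 5.1 at 1, 2, 4 and 6 hours, and 3 of its 4 normalized values were below the floor. The second had 29.7, 94.9, 55.2 and 34.9, with the 1-hour sample below the floor. They also disagreed on the highest sample, the 4-hour sample for the first and the 2-hour sample for the second. Both missed the filter for tests, a mean log2 value that corresponds to a linear signal of about 105 (the 40th percentile). Such values give no usable order of the samples. They also do not show that Camk2a RNA was low, since the part of the transcript that each probe set targets was not used here.

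Camk4 encodes a CaM kinase of the nucleus that phosphorylates the transcription factor CREB. It had 16.6 at 1 hour, 94.2 at 2 hours, 77.0 at 4 hours and 105.8 at 6 hours. The 1-hour sample was below the floor and the other 3 were above it and close together (SD 0.22 on the log2 scale). Set at the floor, the 1-hour value gave the other 3 a mean at least 2.61-fold higher (log2 difference -1.38). Camk4 missed the filter by its mean. With no filter on low values, the limma fit gave that difference an adjusted p of 0.191 (unadjusted 0.0127). The gap therefore did not pass the threshold. It too comes from the sample with the Gapdh ratio of 4.52, and a link between them was not tested.

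Ppp3ca encodes the alpha form of the catalytic subunit of calcineurin. It had 10583 at 1 hour, 9103 at 2 hours, 8172 at 4 hours and 7572 at 6 hours, a mean of 8857 ± 1312 (SD, n = 4). As deposited, the signal was lower at each later hour. After quantile normalization the 1- and 2-hour samples were close, at 9685 and 9763, above 8006 and 7715 at 4 and 6 hours. The fitted change from 1 to 6 hours was -0.38 on the log2 scale, with a 95% interval from -0.78 to 0.02. Its unadjusted p was 0.0612 and its adjusted p 0.74 by limma, the smallest adjusted p of the 4 tested members. An exact permutation test of the same slope, over the 24 orders of the 4 samples, gave 0.0833 (two-sided). That is the smallest value this test can give with 4 samples. It could not pass the threshold used here whatever the signals were, so no conclusion is drawn from it. The same test gave 0.625 for Calm2, 0.167 for Camk2b and 0.667 for Nrgn.

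**Figure D1:**
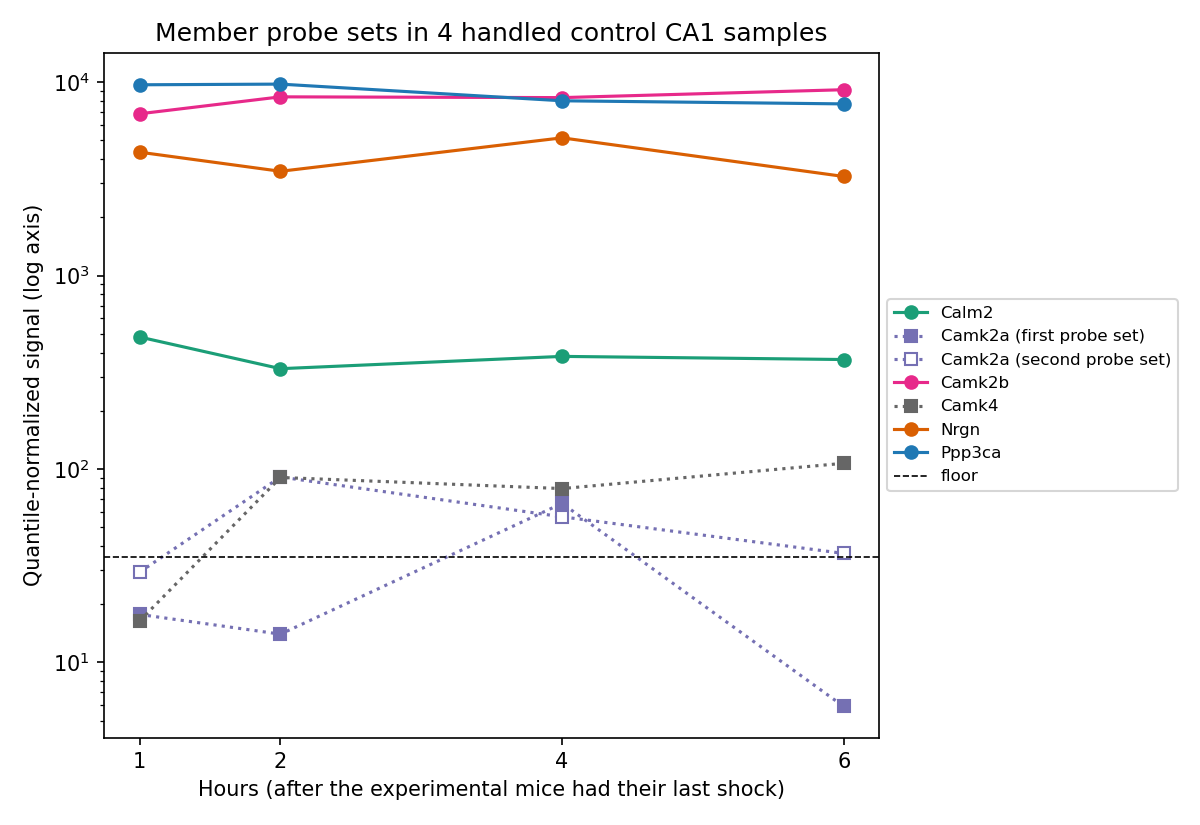
Quantile-normalized signal (log axis) of the 7 member probe sets against the labelled hour, 1 sample per hour; solid lines with circles are tested probe sets, dotted lines with squares are those below the filter, and the dashed line is the floor of 35.1. Ppp3ca ends lower and Camk2b higher than at 1 hour, Nrgn alternates, and the dim Camk2a and Camk4 probe sets cross the floor; heights of different genes are not comparable.

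The first question the samples allow is whether a member changed with hour over the controls. Of the 4 tested member probe sets 0 did at an adjusted p under 0.05, beside 0% (0 of 7453) of all tested probe sets in the same limma fit. At an unadjusted p under 0.05 there were 0 members, beside 6.24% (465 of 7453) of all tested probe sets. The fitted change from 1 to 6 hours was -0.21 for Calm2 (95% interval -1.0 to 0.57), -0.19 for Nrgn (-0.91 to 0.54) and 0.33 for Camk2b (-0.10 to 0.76), besides the -0.38 of Ppp3ca. Without the 1-hour sample the Camk2b change was 0.14. The median of the 4 was -0.20, against -0.023 over all tested probe sets. For Calm2 a doubling is outside its interval and a halving at its edge. In this fit changes of 2-fold in either direction lie outside for Camk2b, Ppp3ca and Nrgn, but for Nrgn they lie inside with no filter on low values, where its interval ran from -1.49 to 1.12, and that of Calm2 from -1.19 to 0.76.

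As deposited, Camk2b was higher and Ppp3ca lower at each later hour. This order was noticed after the values had been seen. Of all tested probe sets 5.10% rose in that way and 5.68% fell in that way, and with 4 members tested, 1 in each direction is too few to read against those shares. After quantile normalization neither member kept the strict order. The signal of Camk2b over that of Ppp3ca, which a scaling of the whole array leaves as it is, was 1.31, 1.52 and 1.73 times its 1-hour value at 2, 4 and 6 hours. Since 1 signal rose and the other fell as deposited, a ratio that rises at each later hour follows from that order and adds no support to it. Its size was not tested, and it does not say which of the 2 signals moved.

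The second question is how far each sample lay from the other 3, where the spread comes from the 3 and the lone sample is assumed to vary alike. In the 1-hour sample 0 of 4 tested members had an adjusted p under 0.05 by limma, beside 2.35% (175) of all 7453 probe sets. At an unadjusted p under 0.05 there was 1 of 4 members, too few to read against the 15.8% (1176) of all tested probe sets. It was Camk2b. That member turned with the scaling: on values as deposited the unadjusted p was 0.0783 for Camk2b and 0.0255 for Ppp3ca, and with equal medians 0.164 and 0.0184. Without an intensity trend in the variance prior it was 0.145 for Camk2b. The 175 became 0 without that trend, 3 with the floor at the 40th percentile, 272 on values as deposited, 222 with equal medians and 365 with no filter. Without the 2-, 4- or 6-hour sample they were 87, 242 and 108. In the 2-, 4- and 6-hour samples 0 of 4 members passed, beside 0% of all probe sets each time. At an unadjusted p under 0.05 there were 0 members each time, beside 2.64% (197), 2.76% (206) and 2.27% (169) of all tested probe sets. The median difference of the 4 members was 0.18 at 1 hour (0.09 without the 6-hour sample), -0.11 at 2 hours, 0.01 at 4 hours and -0.17 at 6 hours, against 0.046, 0.009, 0.006 and 0 over all probe sets. At 1 hour Calm2, Nrgn and Ppp3ca stood above the others and Camk2b below.

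**Figure D2:**
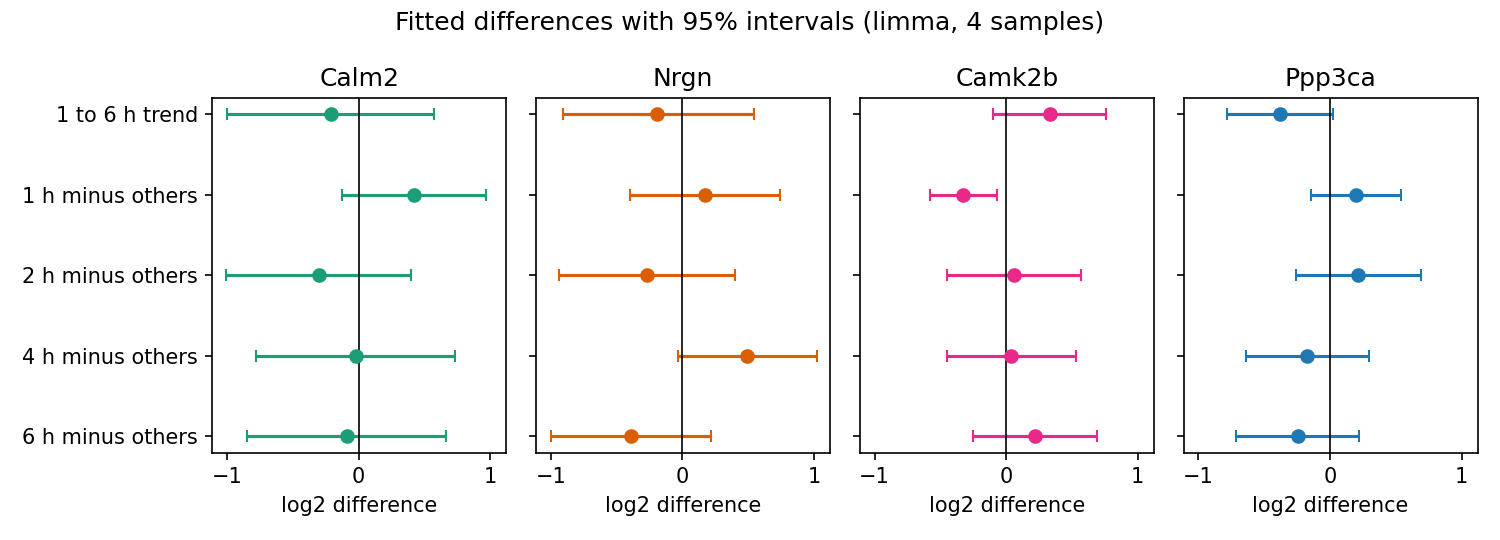
Fitted log2 differences (points) with 95% intervals (bars) for the 4 tested member probe sets, from limma on 4 samples: the change from 1 to 6 hours and each sample minus the mean of the other 3. The interval of Camk2b at 1 hour, -0.58 to -0.07, is the one that does not reach 0 in this setting. Its adjusted p was 0.206, and on values as deposited its unadjusted p was 0.0783.

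The spread of the tested members was set beside that of the array. Their SD over the 4 samples was 0.17 for Camk2b, 0.18 for Ppp3ca, 0.23 for Calm2 and 0.31 for Nrgn on the log2 scale, with a median of 0.20 against 0.25 over all tested probe sets. None had a range of 1 log2 unit, which 17.9% of all tested probe sets had. The members were not matched to the other probe sets by signal level. By Dixon's ratio, the gap of the outermost sample over the whole range, 0 of the 4 had 1 sample apart from the rest, beside 6.75% of all tested probe sets. The members did not share a pattern: the 2 highest samples were those of 1 and 4 hours for Calm2 and Nrgn, 1 and 2 hours for Ppp3ca, and 2 and 6 hours for Camk2b. Over all tested probe sets these pairs were the highest in 19.3%, 18.9% and 16.0%.

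The pattern of Nrgn was set against every other tested probe set with 1 symbol, by the root mean square difference of log2 deviations from each probe set's own mean over the 4 samples. The closest of 6741 was Trim59, with 267, 230, 327 and 217 from 1 to 6 hours (a difference of 0.028). Pithd1 followed with 714, 584, 860 and 528 (0.029), and Shd with 222, 186, 283 and 180 (0.038). In all, 51 probe sets (0.757%) lay within 0.1 of Nrgn, and none of the other members was among the closest 3.

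Other genes of the pathway were then taken from 5 lists with 72 genes in all, of which 45 have probe sets here. Of these 61 probe sets, 43 (38 genes) were bright enough to test. None of the 43 had an adjusted p under 0.05 in the limma fit over hours, beside 0% of all probe sets, or in the 1-hour fit, beside 2.35%, and none in the fits of the 2-, 4- and 6-hour samples. At an unadjusted p under 0.05 there were 3 for hour, beside 6.24% of all tested probe sets, and 10 for the 1-hour sample, beside 15.8%. Both counts are out of the 43. The count for hour lies near the share of the array. That for the 1-hour sample makes a larger share than the array has, a difference that was not tested. The median 1-hour difference of the 43 was 0.02 and their median SD 0.28. Without the 4-hour sample, the 1-hour fit sets 1 sample against only those of 2 and 6 hours. The probe sets that stood out in it were each lower at 1 hour. They were Ppp3r1 at -0.73, both Gria1 probe sets at -0.83 and -1.36, and 1 Mef2c probe set at -1.91. For each of them the 4-hour sample left out was the next lowest as deposited, so leaving it out widens the gap.

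Among calcineurin subunits and regulators 6 of 11 genes were measured, all 6 tested, with 4 higher and 2 lower at 1 hour. Ppp3r1, the calcium-binding regulatory subunit, had 9230, 13666, 10499 and 13430 at 1, 2, 4 and 6 hours. The 2- and 6-hour samples were high and the 1- and 4-hour samples low. Its 1-hour difference was -0.57 ± 0.16 (SE), with an adjusted p of 0.139 by limma. Ppp3cb, the beta form of the catalytic subunit, split the samples the same way, with 719, 1109, 563 and 1052, a range of 0.95 on the log2 scale. Ppp3cc, the gamma form, had 202, 190, 215 and 205, a range of 0.22. The regulator Rcan1, an inhibitor of calcineurin, had 1155, 844, 1070 and 933, and Rcan3 had 422, 327, 279 and 296. Fkbp1a, the binding protein through which the drug FK506 blocks calcineurin, had 18790, 14186, 16935 and 12954. The highest samples were thus those of 2 and 6 hours for Ppp3cb and Ppp3r1 and those of 1 and 2 hours for Ppp3ca, a difference between the genes that was not tested.

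Among CaM kinases and their regulators 8 of 18 genes were measured and 6 tested, with 4 higher and 2 lower at 1 hour. Phkg1, a catalytic subunit of phosphorylase kinase, an enzyme that carries calmodulin as a subunit, had 160, 66.8, 136 and 129, with the 2-hour sample low. Phkg2, its other catalytic form, had 351, 422, 480 and 585. Its fitted change from 1 to 6 hours was 0.65 ± 0.27 (SE), with an adjusted p of 0.74 by limma. The delta gene of CaM kinase II, Camk2d, had 6.2, 34.9, 4.9 and 29.4, below the floor in all 4 samples after normalization.

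Among calmodulin and its buffers 5 of 6 genes were measured and 4 tested, by 5 probe sets, with 2 higher and 3 lower at 1 hour. Pcp4l1, a relative of the calmodulin-binding protein Pcp4, had 289, 260, 392 and 504 by 1 probe set and 315, 326, 326 and 292 by the other, so the 2 disagreed. Marcksl1, which binds calmodulin and actin, had 832, 1112, 1571 and 1478. Its fitted change from 1 to 6 hours was 0.82 ± 0.28 (SE), with an adjusted p of 0.74 by limma. Gap43, a growth cone protein with the same kind of calmodulin-binding motif as neurogranin, had 2954, 3854, 4293 and 3302. Like Nrgn it was highest at 4 hours, but its lowest sample was that of 1 hour, which was the second highest for Nrgn.

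Downstream targets of the kinases and of calcineurin were represented by 14 of 20 genes. Of their 15 tested probe sets 7 spanned at least 1 log2 unit, beside 17.9% of all tested probe sets and 0 of the 4 members. The 7 include every tested Mef2c probe set, with signals of 49.2 to 478. Of the members, Nrgn, Camk2b and Ppp3ca read 3240 or more, and signal level was not matched in this comparison. Of the 15, 7 were higher and 8 lower at 1 hour. Mef2c, a transcription factor that calcineurin activates, had 116, 412, 245 and 478 by its most variable probe set. The 1-hour sample was the lowest, by -1.65 ± 0.39 (SE), with an adjusted p of 0.0874 by limma. Another tested Mef2c probe set, with 169, 409, 183 and 314, was also lowest at 1 hour, while the remaining tested one, with 123, 191, 49.2 and 165, was lowest at 4 hours. Gria1, the AMPA receptor subunit that CaM kinase II phosphorylates, had 5110, 8756, 6759 and 7828 by 1 probe set and 553, 1400, 749 and 1531 by the other. Both were lowest at 1 hour. Dlg4, the scaffold PSD-95, had 549, 840, 935 and 860, again lowest at 1 hour. Crebbp, of the same list, went the other way, with 1381, 938, 987 and 1050, highest at 1 hour.

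Other calmodulin-regulated enzymes were represented by 12 of 17 genes, of which 10 were tested by 11 probe sets, with 5 higher and 6 lower at 1 hour. Nos1, the neuronal nitric oxide synthase, had 53.2, 186, 221 and 100.5, a range of 2.08 on the log2 scale. Its 1-hour difference was -1.60 ± 0.58 (SE), with an adjusted p of 0.232 by limma. Iqgap1, a scaffold with calmodulin-binding IQ motifs, had 187, 95.8, 120 and 119 by its tested probe set, with the 1-hour sample highest. Its other probe sets, which missed the filter, disagreed: 1 was highest at 6 hours (150.4) and 1 at 2 hours (73.8). The phosphodiesterase Pde1a had 655, 974, 824 and 1082 by 1 probe set and 236, 157, 230 and 212 by the other. The first was lowest and the second highest in the 1-hour sample.

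**Figure D3:**
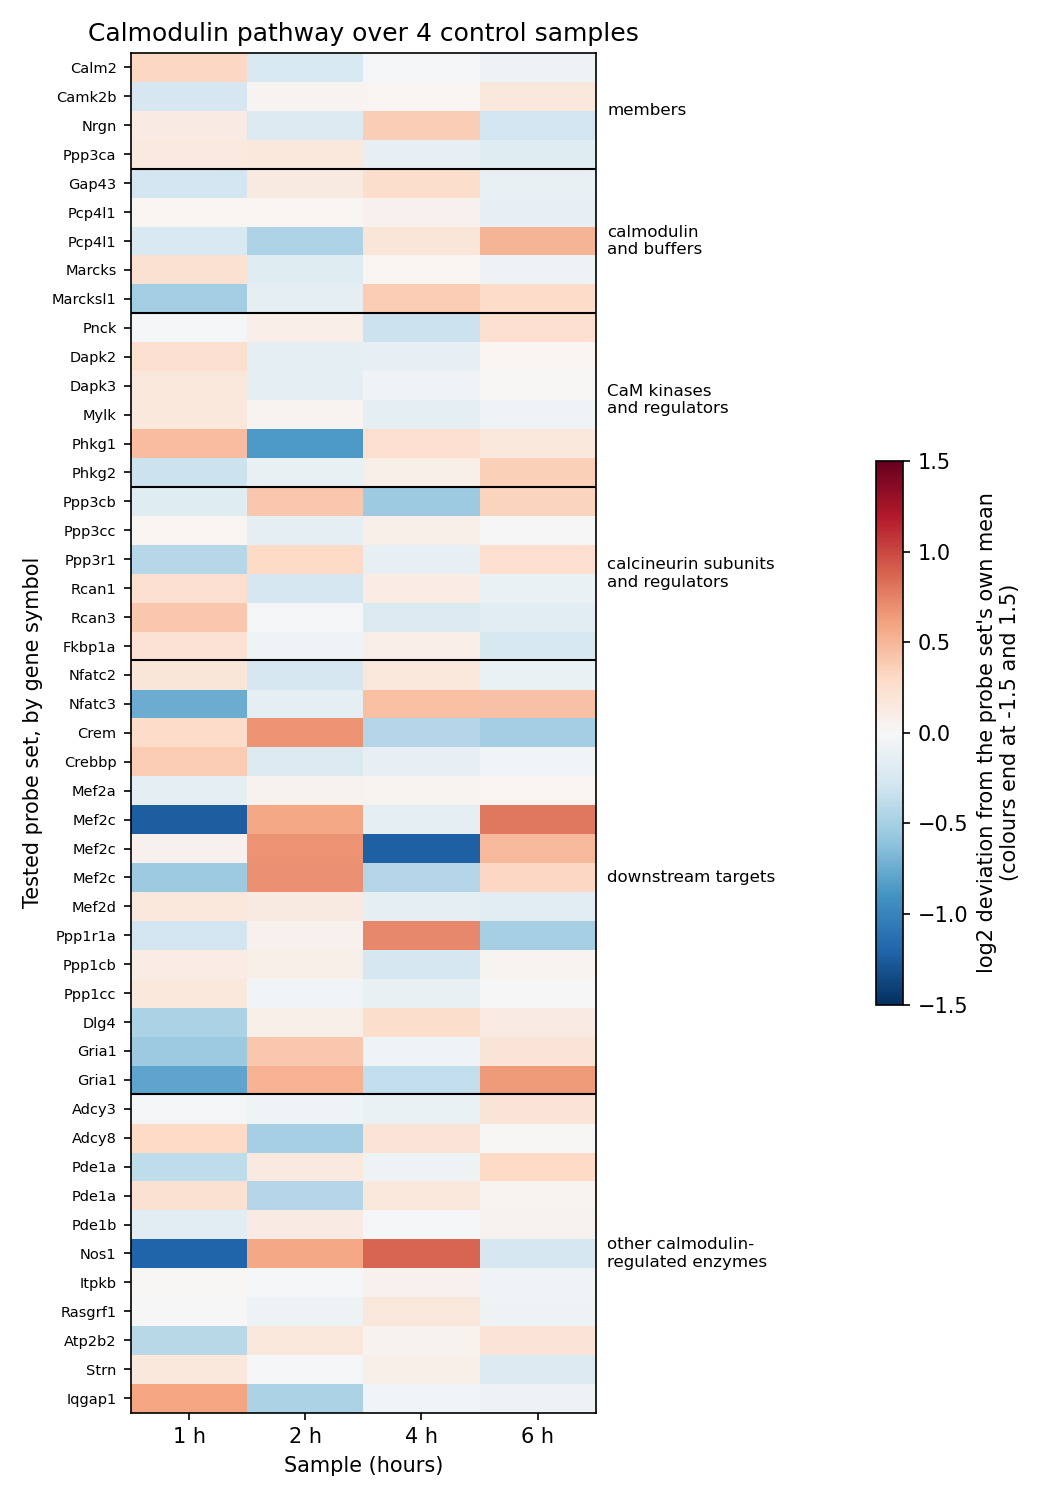
Log2 deviation of each tested probe set from its own mean (colour, from -1.5 in blue to 1.5 in red) in the samples of 1, 2, 4 and 6 hours, for the 4 members and 43 other pathway probe sets grouped by list. The members stay pale, while Mef2c (2 of 3 probe sets), Nos1, Nfatc3 and both Gria1 probe sets are among the bluer cells of the 1-hour sample. The darkest there are 1 Mef2c probe set, at a difference of -1.65 from the other 3, and Nos1, at -1.60.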

How the data were processed

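Expression was measured on 4 arrays of 1 colour. The deposited table holds, per its values, intensity on a linear scale, 1 row per probe set. Trimmed by 2% at both ends, all columns have a mean of 500.3, so the arrays had been scaled to a common level before they were deposited. The array software was not given in the sources used here. Detection calls were not used. Of 12488 rows 66 controls were left out. Of the remaining 12422 probe sets 10833 had 1 symbol, 396 several and 1193 none in the platform annotation, and 10817 were matched by gene identifier to current symbols of assembly GRCm38.p6.

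Here the columns were quantile normalized, floored at the 20th percentile and put on the log2 scale. The 7453 probe sets with a mean at or above the 40th percentile were tested across the whole table with limma 3.58.1 in R 4.3.3 (eBayes with an intensity trend, 2 residual degrees of freedom). One fit had hour as a linear term, and 4 fits set each sample against the other 3. P-values are two-sided, adjusted by Benjamini and Hochberg over all tested probe sets, and measure only the spread between these samples, which may be technical. On simulated data with 200 of 7453 probe sets changed, the hour fit called 2% of those changed by 1 log2 unit and 47% of those changed by 3, and the 1-hour fit 12% and 76%.

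All member probe sets are named. From each pathway list the text names the 2 tested probe sets with the largest range. Ppp3cc, Rcan1, Rcan3, Fkbp1a, Camk2d, Gap43, Gria1, Dlg4, Crebbp, Nfatc3, Pde1a, the second Pcp4l1 probe set and the Mef2c probe set that read 169 at 1 hour were chosen after their values were seen. So were the untested Iqgap1 probe sets. Some probe sets carry name suffixes of the array maker for probes that can match related transcripts. They are those of Gap43, Crebbp and Pithd1, the brighter one of Pde1a, the second of Pcp4l1 and the Mef2c one that read 123 at 1 hour. The Mef2c probe set that read 169 at 1 hour carries a different suffix, whose meaning was not used here. The probe sets of the members carry no such suffix. The members and lists were chosen with earlier results of these data known. Alternatives covered scaling, floor, filter, variance prior, averaging of probe sets and leaving out each sample. The plots come from matplotlib 3.10.9 (Python 3.11.15).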

Additional observations from a re-analysis of the deposited data

Results flagged for a closer look

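In the first Camk2a probe set 1 sample stood apart from the other 3, with a gap equal to the whole range (a ratio of 1, above Dixon's 95% critical value for 4 samples). The 4-hour sample had 64.5, and the other 3 (17.6, 15.2 and 5.1) had been set to the floor, where they are equal. Without the floor the ratio was 0.547. For Camk4 the same ratio was 0.728 with the floor and 0.838, above the critical value, without it, the 1-hour sample (16.6) being the low one. Chance marks about 1 in 20 groups, and 6.75% of all tested probe sets were marked, beside 0 of the 4 tested members.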

How the results depend on the processing

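The counts of member calls, 0 in each fit, stayed at 0 under every alternative but 1. With no filter on low values the count in the 4-hour sample was 1, the first Camk2a probe set, whose other 3 values all lie at the floor and so have no spread. The same holds for 4 other pathway probe sets called with no filter, 1 each of Nfatc2 at 1 hour, Nfatc1 at 2 hours, Strn at 4 hours and Mef2a at 6 hours. With no filter 2 of the 7 member probe sets spanned at least 1 log2 unit (0 of 4 in the main setting), the median 1-hour difference was -0.31 (0.18 in the main setting), and the count of other pathway probe sets at 1 hour was 1. With arrays scaled to equal medians the median 1-hour difference was 0.33. Leaving out 1 sample at a time gave 0 to 4 calls of other pathway probe sets in the 1-hour sample, 4 of them without the 4-hour sample. It turned the direction of 2 trends that had not passed: the Calm2 trend ranged from -0.40 to 0.20, positive without the 1-hour sample, and the Nrgn trend from -0.36 to 0.56, positive without the 6-hour sample; the cause was not tested. The Camk2b trend ranged from 0.14 to 0.43 and the median 1-hour difference from 0.09 to 0.27. Over the alternatives run, the trend of Ppp3ca stayed between -0.49 and -0.36 and the 1-hour difference of Camk2b between -0.35 and -0.20, with adjusted p from 0.527 to 1 and from 0.140 to 0.497. No paired analysis was possible because there is 1 group with 1 sample at each hour. Signals near the floor limit what Camk2a and Camk4 can show.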
